A study of Xenopus laevis with 6 samples.

Results

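Knockdown of ERK3 in the embryonic ectoderm of Xenopus laevis was compared with a control knockdown on 4 of the 6 arrays of a study on epithelial architecture, over all 11303 genes to which the array assigned a symbol. The compared arrays were the 2 labelled with the morpholino pair ERK3 MO1/2 and the 2 labelled Control MO. The other 2 arrays carried the pair TFAP2A MO1/2, against a transcription factor of epidermis and neural crest, and entered the fit, where they helped to estimate the spread. Each ERK3 MO1/2 embryo had received 40 ng of each morpholino of the pair, each TFAP2A MO1/2 embryo likewise 40 ng of each, and each Control MO embryo 80 ng of a single morpholino. All embryos came from in vitro fertilization and were injected on the animal side of every cell at the 4-cell stage. Their animal caps were explanted at stage 9, kept on their own and collected at stage 15. The labels give no strain and call the replicates biological and independent, without saying whether equal replicate numbers share a batch of embryos.

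ERK3, encoded by mapk6, is an atypical mitogen-activated protein kinase. Unlike ERK1 and ERK2 it is not switched on through the usual kinase cascade, and its activity is set largely by the rapid turnover of the protein. An animal cap is the roof of the blastula, which forms an embryonic epidermis with ciliated, ionocyte and secretory cells when it is left without inducing signals. A morpholino is an antisense oligonucleotide that blocks the translation or splicing of a transcript, so the level of its target's transcript need not fall. No probe set is annotated with mapk6 or its relative mapk4, so 0 values can be assigned to the target itself.

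Most defining markers of epidermis were bright in both groups, and 2 of them passed the test in a single copy. The epidermal keratin gene krt12.4.L had intensities of 3583.9 and 3883.2 in ERK3 MO1/2 caps and 4358.7 and 4467.6 in Control MO caps. The epithelial adhesion gene epcam.S had 3472.3 and 4066.7 in ERK3 MO1/2 caps and 3609.6 and 3859.6 in Control MO caps, and the grainyhead factor gene grhl3.S had 1076.9 and 1108.1 in ERK3 MO1/2 caps and 1369.8 and 1368.0 in Control MO caps. None of these 3 passed the test. The basal epidermis gene tp63.L was dimmer, at 7.12 and 7.94 in ERK3 MO1/2 caps and 15.5 and 18.3 in Control MO caps, and fell by 1.16 (limma adjusted p = 0.0142). The brighter copy tp63.S had 78.3 and 57.7 in ERK3 MO1/2 caps and 98.8 and 138.3 in Control MO caps. Its change of -0.80 did not pass (adjusted p = 0.0925). The epidermal regulator gene tfap2a.S had 1237.1 and 1055.8 in ERK3 MO1/2 caps and 718.3 and 528.2 in Control MO caps, and rose by 0.89 (adjusted p = 0.0362). The change of the brighter copy tfap2a.L, 0.81, did not pass (adjusted p = 0.0847). The neural crest markers sox10.L, foxd3.L, foxd3.S and snai2.S and the blood markers hba1.S and tal1.S lay under the lower quartile of every array of both groups. The crest markers snai2.L and twist1.L and the globin genes hba3.L and hbg1.L did not: snai2.L had 2.73 and 6.82 in ERK3 MO1/2 caps and 12.8 and 17.5 in Control MO caps, and the globins lay between 8.50 and 21.3 over both groups. None of these passed. The neural markers sox2.L and sox3.L were measured above the lower quartile in both groups, at 163.7 and 186.7 in ERK3 MO1/2 caps and 126.1 and 204.6 in Control MO caps for sox2.L. They did not pass, nor did sox3.S, ncam1.L and ncam1.S, while the neural marker tubb2b.S fell by 1.38 (limma adjusted p = 0.0117). Tissue makeup and RNA level per cell cannot be told apart in such bulk samples.

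Across the 32539 probe sets, correlations of log2 intensity, given as a description, were 0.987 between the ERK3 MO1/2 arrays and 0.988 between the Control MO arrays, and 0.962 to 0.976 across these groups. Median intensity was 23.8 and 23.2 on the ERK3 MO1/2 arrays and 24.6 and 24.1 on the Control MO arrays. The bacterial polyadenylated control of dap read 3120.4 and 3106.8 on the ERK3 MO1/2 arrays and 2755.2 and 2211.4 on the Control MO arrays. The manufacturer's gapdh 3′ control read 42.1 and 84.2 on the ERK3 MO1/2 arrays and 296.2 and 335.4 on the Control MO arrays, which is the same direction as the gene gapdh.L below.

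More genes were called lower than higher in ERK3 MO1/2 caps. At a limma adjusted p under 0.05, 446 of 11303 genes were higher in ERK3 MO1/2 caps, 3.95%, and 891 were lower, 7.88%. Together these were 1337 genes, 11.8%, and 3439 genes, 30.4%, had an unadjusted p under 0.05. Over all 32539 tested probe sets, most of which carry no symbol, 3443 were called, 10.6%, with 1460 higher, 4.49%, and 1983 lower, 6.09%. These calls need both control arrays: leaving out either Control MO replicate 1 or Control MO replicate 2 left 0 genes called by limma, with 2795 and 2479 at an unadjusted p under 0.05. Without ERK3 MO1/2 replicate 1, 36 genes were higher and 65 lower, and without ERK3 MO1/2 replicate 2, 185 were higher and 446 lower.

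Most called changes were moderate. Among the 446 higher genes the median size was 0.92 on the log2 scale, with 180 at 2-fold or more and 31 at 4-fold or more. Among the 891 lower genes the median size was 0.96, with 419 at 2-fold or more and 32 at 4-fold or more. Past 8-fold there were 8 higher genes and 1 lower gene, wfdc2.L. Calls were rare among dim genes. With the genes in 4 equal classes by mean intensity, 1.59% were called in the dimmest class, 17.8% and 17.5% in the middle classes and 10.4% in the brightest. The median gap between 2 arrays of a group was 0.19 for ERK3 MO1/2 and 0.18 for Control MO, and the median size of the difference between the groups was 0.26 over all genes. A called gene whose symbol was shared by further probe sets could be looked at more than once. Of 558 such further probe sets, 430 changed in the same direction, 77.1%, of which 158 were called in that direction, while 16 were called in the opposite direction.

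The same-numbered arrays gave 2 separate differences, ERK3 MO1/2 replicate 1 minus Control MO replicate 1 and ERK3 MO1/2 replicate 2 minus Control MO replicate 2. All 446 higher and all 891 lower genes had the same sign in both pairs and arrays that did not overlap between the groups. The calls were made from these same arrays, so their agreement is no separate check of consistency. Groups did not overlap for 6621 of all 11303 genes, 58.6%, so this is a loose criterion. Over all genes the sign was shared by both pairs for 8524, 75.4%. A difference of 2-fold or more in both pairs was found for 151 genes on the higher side, 1.34%, and 376 on the lower side, 3.33%, and for 0 genes in opposite directions. Another 446 genes reached 2-fold only in pair 1 and 349 only in pair 2. The falls tended to be larger in pair 1, as 553 of the 891 lower genes were, while 216 of the 446 higher genes were larger in pair 1. Across genes, which are not independent replicates, the differences of both pairs had a correlation of 0.80 and a median gap of 0.20. The labels do not state that equal numbers belong together. With the numbers exchanged between the groups, the correlation was 0.44, the median gap 0.30, the sign was shared by 66.1% of genes, and 71 genes reached 2-fold in opposite directions. Of the called genes, 133 higher and 305 lower ones reached 2-fold in both pairs, and 195 higher and 365 lower ones in neither pair.

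**Figure D1:**
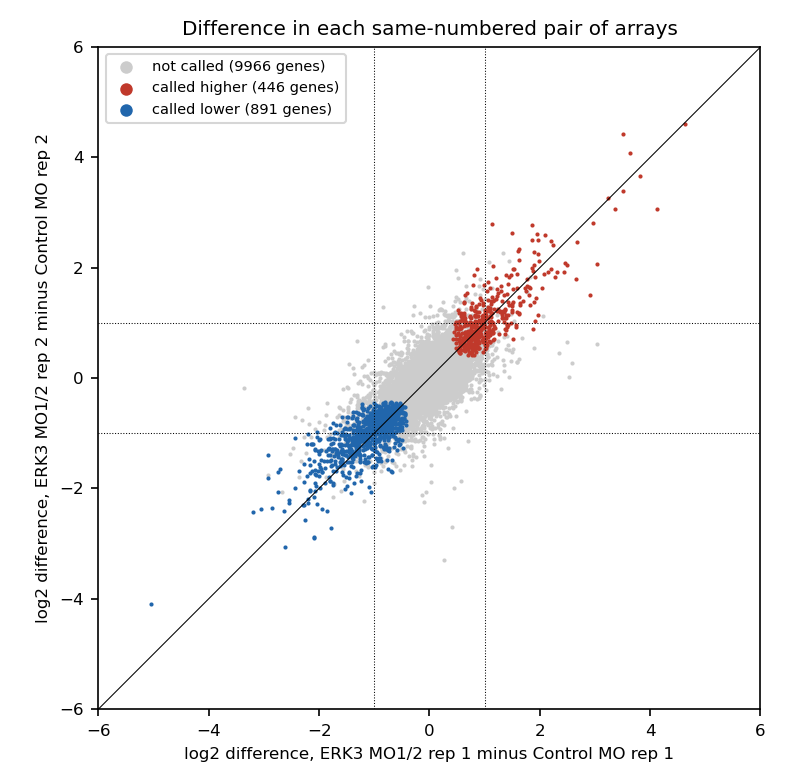
Each point is 1 of 11303 genes, with its log2 difference between replicate 1 of ERK3 MO1/2 and of Control MO on the horizontal axis and the same for replicate 2 on the vertical axis. Red points are the 446 genes called higher, blue points the 891 called lower and grey points the rest, and dotted lines mark 2-fold. The called genes lie along the diagonal, with 0 genes past 2-fold in opposite corners in this pairing and 71 with the numbers exchanged.

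The largest rises started from levels between background and moderate brightness in control caps. Of the 12 largest, rpe65.L, tspan4.S and mx1.L were under the lower quartile of both Control MO arrays. Here and below, ± is the standard error (SE) of limma's moderated fit with 2 arrays per group. The histidine ammonia-lyase gene hal.2.L, which starts histidine breakdown, had intensities of 129.9 and 152.1 in ERK3 MO1/2 caps, against 11.5 and 7.09 in Control MO caps. The POU factor gene pou5f3.3.L, which keeps early embryonic cells uncommitted, had 238.0 and 240.4 in ERK3 MO1/2 caps, against 19.1 and 14.2 in Control MO caps. The chemokine gene cxcl12.L, the ligand of the receptor Cxcr4, had 1296.3 and 962.5 in ERK3 MO1/2 caps, against 91.8 and 75.8 in Control MO caps. In each of these 3 genes the ERK3 MO1/2 arrays lay far above both control arrays, with limma adjusted p-values of 0.00701, 0.0068 and 0.00701. The tetraspanin gene tspan4.S had 53.9 and 51.6 in ERK3 MO1/2 caps, against 5.7 and 5.35 in Control MO caps, which lie under the lower quartile of their arrays. Its rise was therefore at least 8.18-fold, with the lowest adjusted p of any gene named here, 0.00236. On the TFAP2A MO1/2 arrays it read 5.87 and 5.84. The other rises of this rank included itgb1bp2.L, which encodes the integrin-binding chaperone melusin, at 3.45 ± 0.27 on the log2 scale. Its other probe set rose by 1.27 (adjusted p = 0.0105). The late endosome gene rilp.S, whose product links Rab7 to dynein, rose by 2.35 ± 0.25. Several of these genes rose with TFAP2A MO1/2 as well, against Control MO by 3.27 for cxcl12.L, 3.02 for pou5f3.3.L and 2.57 for rilp.S. Their differences between the knockdowns, 0.47, 0.84 and -0.22, did not pass (limma adjusted p = 0.326, 0.0923 and 0.696). That of itgb1bp2.L, 1.02, did not pass either (0.0972). For hal.2.L and tspan4.S the differences of 2.48 and 3.17 passed (0.0181 and 0.00184). With TFAP2A MO1/2, hal.2.L also rose against Control MO, by 1.48 (limma adjusted p = 0.0261), while the change of tspan4.S, 0.08, did not pass (0.724).

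The largest falls included secreted, RNA-binding and membrane proteins. The whey acidic protein gene wfdc2.L had 61.0 and 167.8 in ERK3 MO1/2 caps, against 2002.2 and 2856.0 in Control MO caps. The RNA-binding protein gene rbm12.L had 87.4 and 172.5 in ERK3 MO1/2 caps, against 723.1 and 892.7 in Control MO caps. In both, ERK3 MO1/2 replicate 1 was the lowest array, and the naming rule required arrays that did not overlap between the groups. The potassium channel gene kcnk1.S lay under the lower quartile on both ERK3 MO1/2 arrays, at 6.39 and 5.13, against 27.2 and 38.4 in Control MO caps, a fall of at least 4.77-fold. The E2F partner gene tfdp2.S had 81.9 and 92.1 in ERK3 MO1/2 caps, against 390.9 and 546.7 in Control MO caps. It fell by 2.41 ± 0.23 (limma adjusted p = 0.0082), and the other 6 probe sets of this gene were lower as well, 3 of them past the test.

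**Figure D2:**
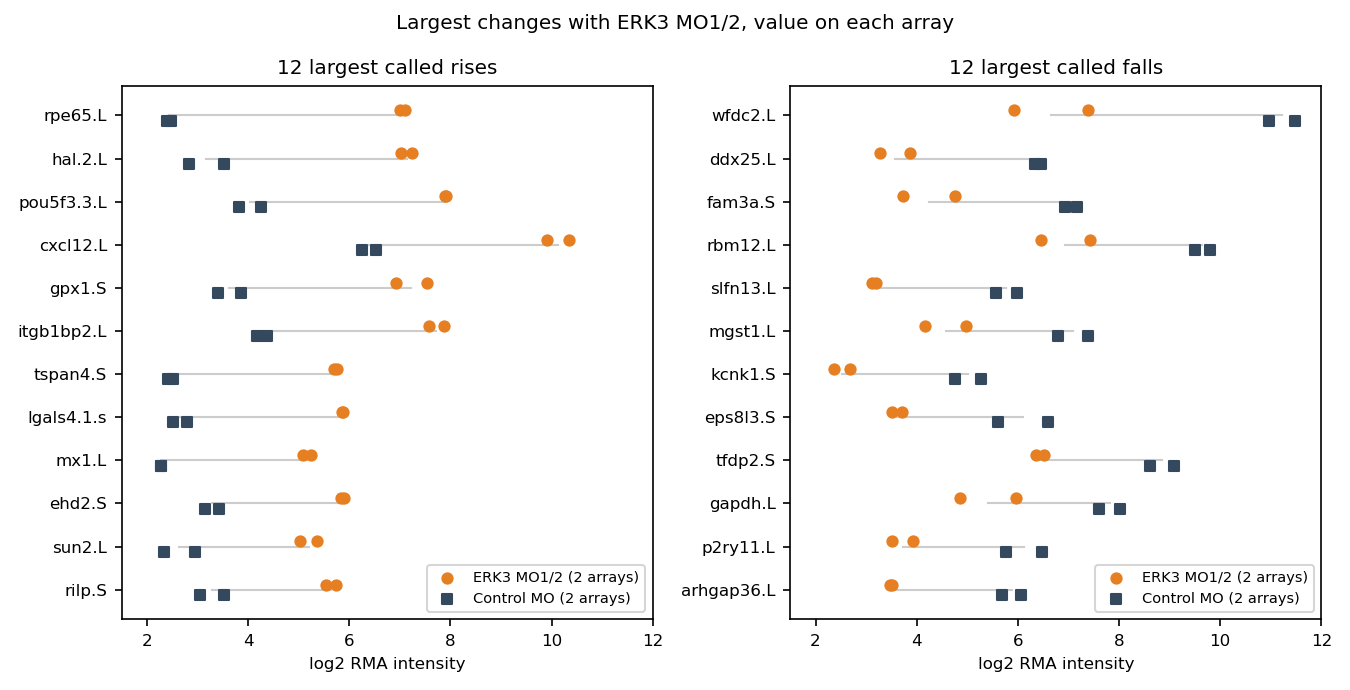
Log2 RMA intensity of the 12 largest called rises (left panel) and the 12 largest called falls (right panel) on each array, with ERK3 MO1/2 arrays as orange circles and Control MO arrays as dark squares. Grey lines join the group means. In all 24 genes the arrays of the groups are separate, as the rule that took these genes required. Control values of the rises range up to those of cxcl12.L, at 91.8 and 75.8, and those of the falls up to wfdc2.L, at 2002.2 and 2856.0.

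To describe functional groups, 61 lists were set out, which hold 4034 of the genes and 468 of the 1337 called ones. Each list is read against the shares over all genes, 3.95% higher and 7.88% lower, and 186 genes stand in several lists. The lists were not tested as sets.

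**Figure D3:**
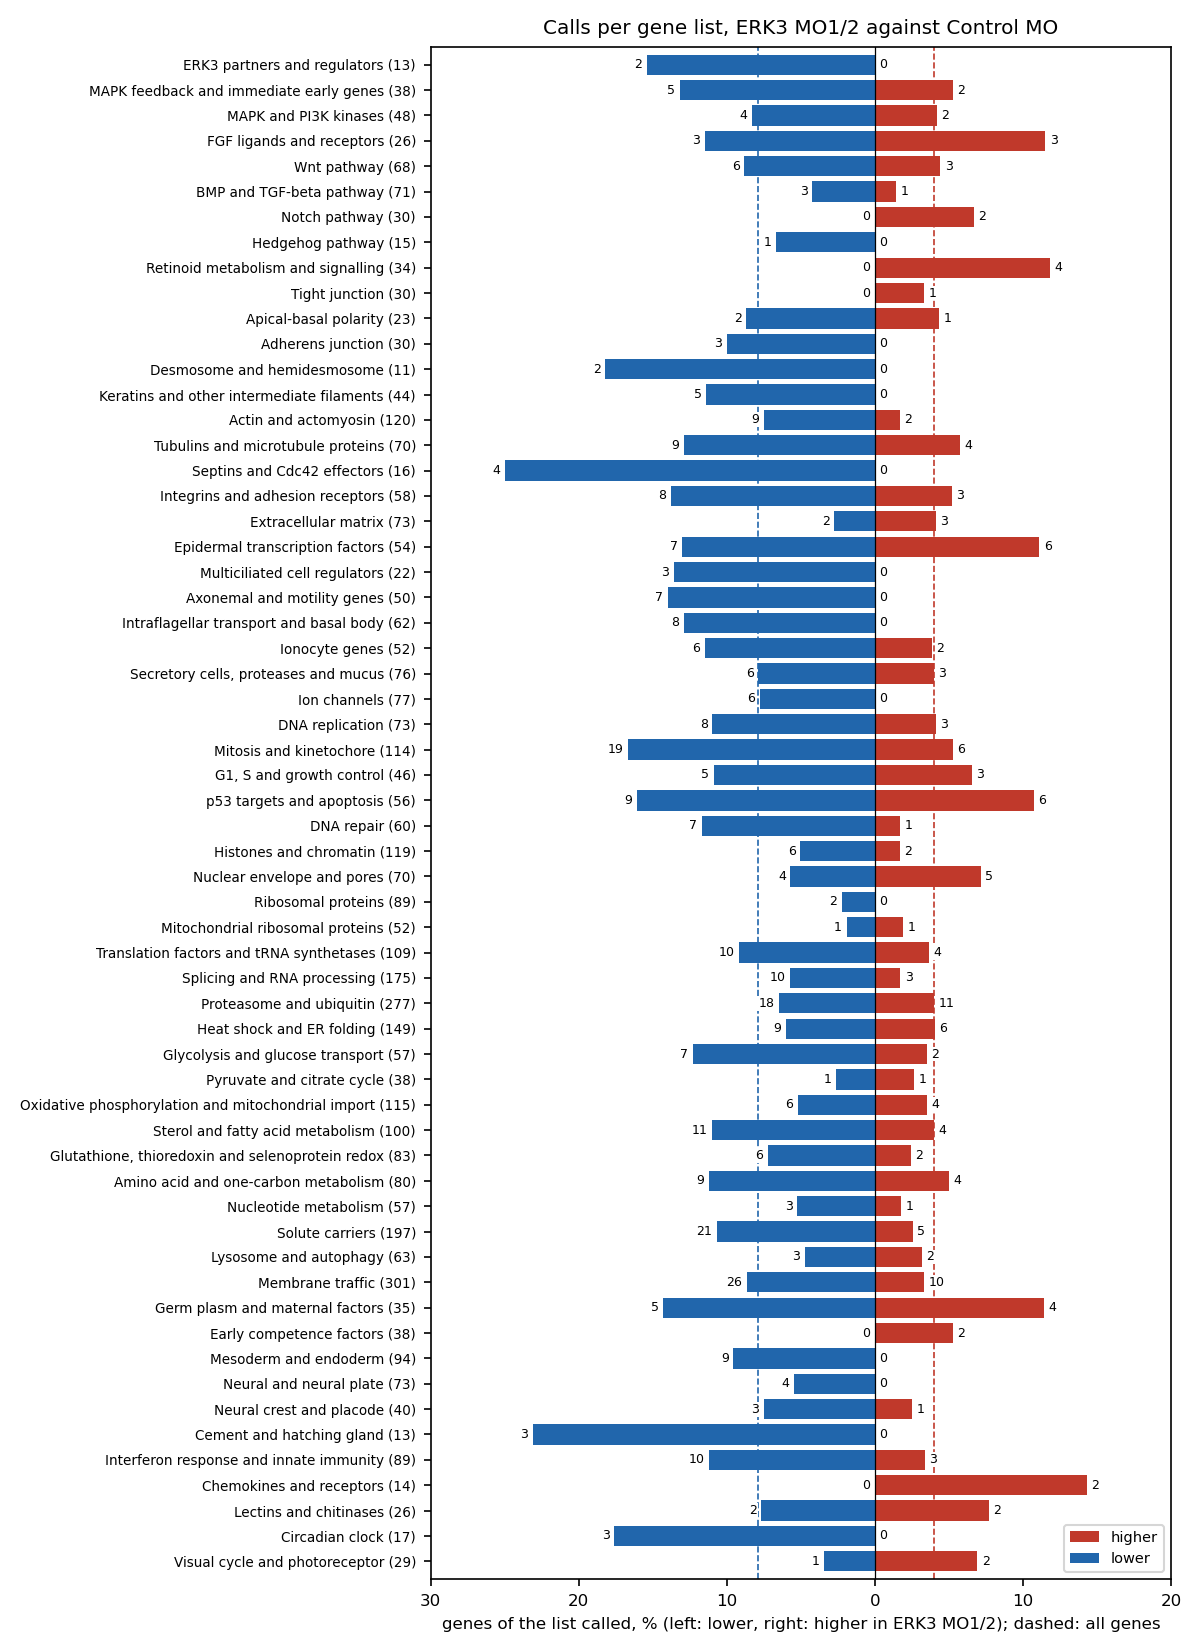
Share of the genes of each list shown that were called higher (red, to the right) or lower (blue, to the left) in ERK3 MO1/2 caps, in percent, with the number called at the end of each bar and the number of genes in parentheses. Dashed lines give the shares over all genes, 3.95% higher and 7.88% lower. Among lists with 3 or more falls, the bars to the left are longest for septins and Cdc42 effectors at 25%, the cement and hatching gland at 23.1%, the clock at 17.6%, mitosis at 16.7% and p53 targets at 16.1%.

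Of 13 measured genes for partners and regulators of ERK3 or its pathway, 0 were called higher and 2 were called lower, 15.4%. The phosphatase gene cdc14a.L, whose product binds ERK3 in human cells, had 36.8 and 39.3 in ERK3 MO1/2 caps, against 69.5 and 101.8 in Control MO caps. It fell by 1.15 ± 0.20 (limma adjusted p = 0.0237). The Borg protein gene cdc42ep2.L, a Cdc42 effector that organises septins, had 78.6 and 104.4 in ERK3 MO1/2 caps, against 168.6 and 202.5 in Control MO caps. It fell by 1.03 ± 0.22 (adjusted p = 0.0404). Against TFAP2A MO1/2 the differences of cdc14a.L and cdc42ep2.L, -0.40 and -0.53, did not pass (limma adjusted p = 0.33 and 0.249). Both genes had ERK3 MO1/2 arrays below both control arrays, as all 891 genes called lower did. The deubiquitinase gene usp20.L, whose product stabilises ERK3 in human cells, had a change of 0.20 ± 0.14 (adjusted p = 0.426). Its signal was low, at 7.93 and 8.31 in ERK3 MO1/2 caps and 6.46 and 7.76 in Control MO caps. The lower quartiles of these arrays lay between 6.36 and 6.96. The coactivator gene ncoa3.S, an ERK3 substrate in human cells, had a change of 0.47 ± 0.17 (adjusted p = 0.136), which was 0.31 without ERK3 MO1/2 replicate 1.

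Mitotic genes were lower more often than genes in general. Of 114 genes of mitosis and the kinetochore, 19 were called lower, 16.7%, and 6 higher, 5.26%, and 89 did not pass. The list's median change was only -0.10, and 66 of its genes had a change below 0. Its median was -0.18 in pair 1 and -0.00 in pair 2, so the shift of the list as a whole was seen in pair 1 only. The kinetochore gene nuf2.L, part of the Ndc80 complex that holds spindle microtubules, had 41.4 and 43.6 in ERK3 MO1/2 caps, against 185.5 and 179.9 in Control MO caps. The phosphatase gene cdc25c.L, which activates the mitotic kinase Cdk1, had 209.4 and 266.1 in ERK3 MO1/2 caps, against 972.4 and 916.1 in Control MO caps. The sororin gene cdca5.S, which protects sister chromatid cohesion, had 82.9 and 76.1 in ERK3 MO1/2 caps, against 239.2 and 307.0 in Control MO caps. In these 3 genes the changes were -2.10 ± 0.12, -2.0 ± 0.15 and -1.77 ± 0.16 (limma adjusted p = 0.0068, 0.00779 and 0.0082). The checkpoint gene zw10.L, which brings dynein to kinetochores, fell by 1.83 ± 0.20, and the spindle motor gene kif11.S by 0.88 ± 0.12.

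The chromosomal passenger complex, which corrects spindle attachments, had genes called in both directions. Of its measured genes, aurkb.S, birc5.S, birc5l.L, birc5l.S, cdca8.L and cdca9.S are not described here. Its kinase gene aurkb.L had 250.4 and 307.6 in ERK3 MO1/2 caps, against 581.9 and 620.5 in Control MO caps, a fall of 1.11 ± 0.14 (limma adjusted p = 0.013). Its survivin gene birc5.L had 453.4 and 405.7 in ERK3 MO1/2 caps, against 231.8 and 161.5 in Control MO caps, a rise of 1.15 ± 0.19 (adjusted p = 0.0227). Both copies of its scaffold gene incenp were lower, incenp.S by 0.97 ± 0.14 and incenp.L by 0.73 ± 0.14. The other 5 mitotic genes that rose were the cyclin B gene ccnb1.S, the phosphatase gene cdc25b.L, mad2l2.S, cenpn.L and the anaphase-promoting complex gene anapc15.L. For incenp and these 5 genes the naming followed their values. The rise of ccnb1.S rested on uneven arrays, 181.9 and 64.3 in ERK3 MO1/2 caps against 28.7 and 18.5 in Control MO caps, and its change of 2.23 was 1.48 without ERK3 MO1/2 replicate 1. Outside the list, both copies of the spindle gene tacc3, which stabilises kinetochore fibres, were lower: tacc3.L fell by 1.69 ± 0.16 and tacc3.S by 1.57 ± 0.17.

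Some mitotic genes were also lower than in the other knockdown. In the direct contrast of ERK3 MO1/2 with TFAP2A MO1/2, 644 of 11303 genes were called, 5.7%, with 292 higher, 2.58%, and 352 lower, 3.11%. Of the 446 genes called higher than in Control MO caps, 89 were also called higher here, 20%. Of the 891 called lower, 168 were also called lower here, 18.9%. In the mitosis list 19 genes were lower in ERK3 MO1/2 caps than in TFAP2A MO1/2 caps and 3 were higher. The list's median difference was -0.30, against 0.00 over all genes. Of the 19 mitotic genes called lower than in Control MO caps, 12 were among those lower than in TFAP2A MO1/2 caps, and these comparisons share the ERK3 MO1/2 arrays. The list stood higher in TFAP2A MO1/2 caps than in Control MO caps, with a median difference of 0.19, 18 genes higher and 3 lower. The difference was -2.71 for nuf2.L (limma adjusted p = 0.00425), -1.59 for cdc25c.L (0.0141), -1.64 for cdca5.S (0.0143) and -1.53 for aurkb.L (0.0141). On the TFAP2A MO1/2 arrays nuf2.L read 291.3 and 264.6, above both groups compared here, and cdc25c.L read 732.5 and 692.9, between them.

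**Figure D4:**
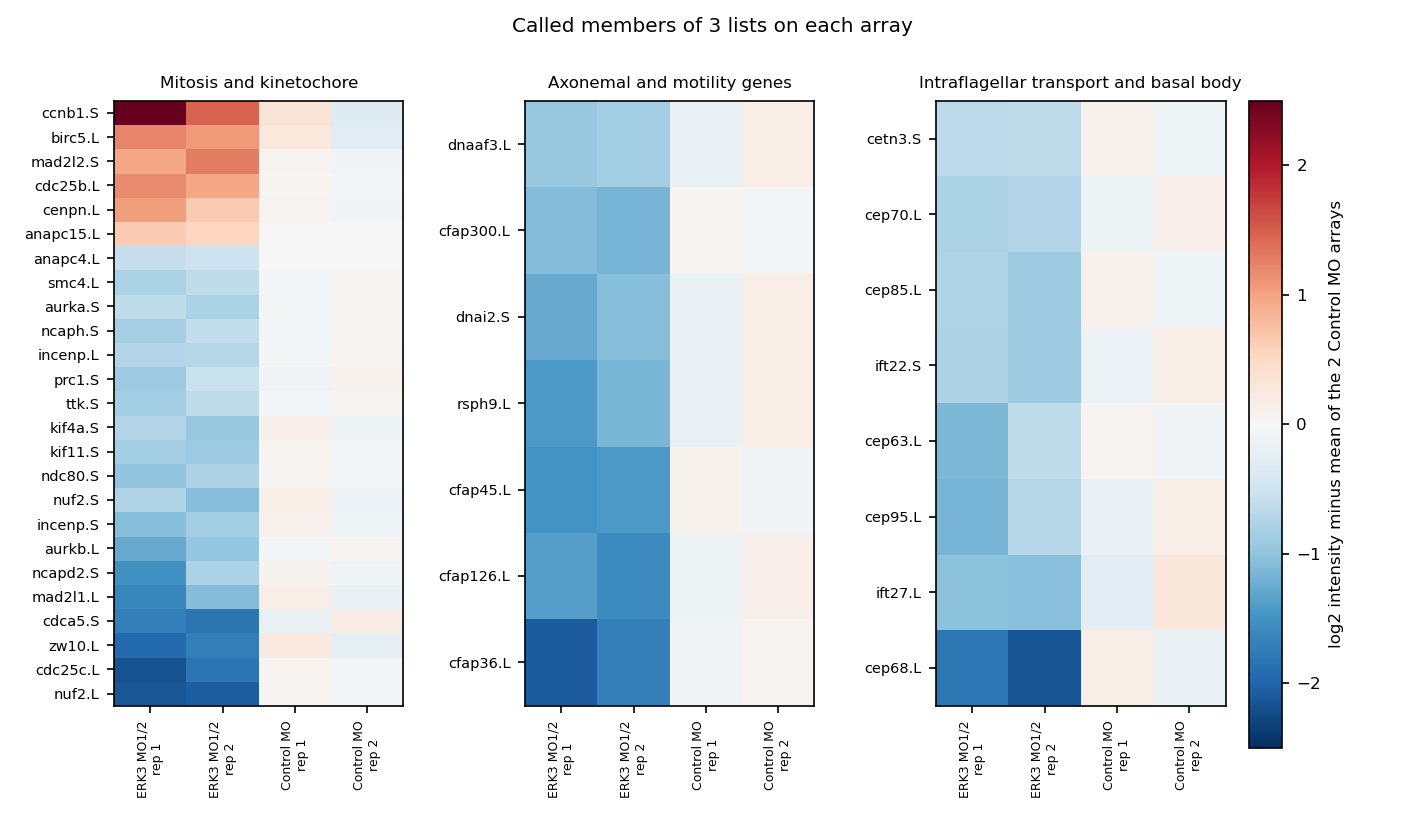
Log2 intensity on each array minus the mean of the 2 Control MO arrays for every called member of 3 lists, with the ERK3 MO1/2 arrays as the left columns and the Control MO arrays as the right columns of each panel. Red is higher and blue lower. The 6 rises and 19 falls of the mitosis list and the 7 and 8 falls of the ciliary lists look alike on both ERK3 MO1/2 arrays, with ccnb1.S the most uneven.

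DNA replication genes changed in both directions. Of 73 genes, 3 were called higher, 4.11%, and 8 lower, 11%. The list's median was -0.21 in pair 1 and 0.03 in pair 2. The polymerase epsilon genes pole2.L and pole.L, which copy the leading strand, rose by 0.98 ± 0.13 and 0.78 ± 0.12, while the other probe set of pole.L had a change of 0.17 (adjusted p = 0.645). The helicase component genes gins4.L and mcm5.S fell by 0.90 ± 0.13 and 0.70 ± 0.14, and both read higher than on the TFAP2A MO1/2 arrays (limma adjusted p = 0.0259 and 0.0289). The single-strand binding protein gene rpa1.L fell by 1.11 ± 0.20. Of 60 DNA repair genes 1 was higher, 1.67%, and 7 were lower, 11.7%. The rise was that of the base excision polymerase gene polb.S, at 0.97 ± 0.13. The falls included the mismatch repair gene msh6.L and the end-joining gene xrcc5.L, at -0.87 ± 0.18 and -0.69 ± 0.13.

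Growth arrest and p53 target genes were called more often than genes in general and moved in both directions. Of 56 genes of the p53 response and apoptosis, 6 were higher, 10.7%, and 9 lower, 16.1%. The Cdk inhibitor gene cdkn1a.L, encoding p21, had 8.82 and 7.28 in ERK3 MO1/2 caps, against 40.6 and 35.2 in Control MO caps. It fell by 2.24 ± 0.25 (limma adjusted p = 0.0101), also against TFAP2A MO1/2 (-1.78, adjusted p = 0.025). The kinase gene plk2 fell in both copies, with 11.6 and 19.8 in ERK3 MO1/2 caps against 87.9 and 52.0 in Control MO caps for plk2.L, and 17.1 and 18.1 in ERK3 MO1/2 caps against 88.4 and 58.1 in Control MO caps for plk2.S. The stress-response gene sesn1.L, whose product restrains growth signalling, fell by 1.49 ± 0.19, and its other probe set had a change of -0.35 (adjusted p = 0.412). The inhibitor of apoptosis gene birc2.S fell by 1.37 ± 0.15. In contrast the growth arrest gene gadd45g.L had 1744.2 and 2019.1 in ERK3 MO1/2 caps, against 558.9 and 788.7 in Control MO caps, and rose by 1.5 ± 0.20 (adjusted p = 0.0134). Its relative gadd45a.S rose by 0.90 ± 0.16, and the caspase activator gene apaf1.L by 1.02 ± 0.17. The atypical cyclin genes ccng2.L and ccng1.L fell by 1.25 ± 0.22 and 0.94 ± 0.20.

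Ciliary genes were called in the lower direction only. Of 50 axonemal and motility genes, 7 were lower, 14%, and 0 higher, and the list's median was -0.58, against 0.01 over all genes. Its median was -0.42 in pair 1 and -0.67 in pair 2, and 42 of the 50 genes had a change below 0. On 33 of them both ERK3 MO1/2 arrays lay below both Control MO arrays, against 29.9% of all genes. The ciliary protein gene cfap45.L, found inside axonemal microtubules, had 27.4 and 28.6 in ERK3 MO1/2 caps, against 81.5 and 72.5 in Control MO caps. The radial spoke gene rsph9.L, part of the motility machinery, had 77.3 and 95.4 in ERK3 MO1/2 caps, against 187.6 and 234.9 in Control MO caps. The outer dynein arm gene dnai2.S had 47.9 and 55.1 in ERK3 MO1/2 caps, against 102.4 and 129.8 in Control MO caps. Their changes were -1.46 ± 0.18, -1.29 ± 0.19 and -1.17 ± 0.23 (limma adjusted p = 0.0118, 0.0159 and 0.0314).

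Of 62 genes of intraflagellar transport and the basal body, 8 were lower, 12.9%, and 0 higher, with a median of -0.24. The centrosome linker gene cep68.L had 15.4 and 12 in ERK3 MO1/2 caps, against 60.6 and 47.8 in Control MO caps, and fell by 1.99 ± 0.21. The transport train genes ift27.L and ift22.S fell by 1.03 ± 0.22 and 0.85 ± 0.15, and the other probe set of ift27.L had a change of -0.38 (adjusted p = 0.483). Of 22 regulators of the multiciliated fate, 3 were lower, 13.6%, and 0 higher, and tfdp2.S above was among the falls. The coactivator gene mcidas.S, which starts the multiciliated programme, had 668.4 and 445.0 in ERK3 MO1/2 caps and 338.9 and 482.3 in Control MO caps, so the groups overlapped. The motile cilia factor gene foxj1.S had 1971.1 and 1507.6 in ERK3 MO1/2 caps and 1784.6 and 1435.7 in Control MO caps, and its change of 0.11 ± 0.19 did not pass (adjusted p = 0.768). Against TFAP2A MO1/2, 2 axonemal genes were lower and 1 was higher, and the medians against Control MO were -0.58 for ERK3 MO1/2 and -0.49 for TFAP2A MO1/2, which share the control arrays.

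Of the other epidermal cell types, ionocyte and ion transport genes had 2 higher and 6 lower of 52, 3.85% and 11.5%. Subunits of the proton pump that acidifies the cell surface were among the falls: atp6v1c1.L had 302.4 and 353.0 in ERK3 MO1/2 caps, against 606.7 and 642.0 in Control MO caps, and atp6v0d1.L fell by 0.69 ± 0.13. The anion exchanger gene slc4a1.L fell by 0.75 ± 0.13. The ionocyte fate gene foxi1.L had 1121.1 and 629.2 in ERK3 MO1/2 caps and 1333.8 and 751.2 in Control MO caps, so its groups overlapped. The ionocyte marker tfcp2l1.L fell by 1.12 (limma adjusted p = 0.0217). The markers tfcp2l1.S, atp6v1b1.L and ca12.L, at -0.29, -1.16 and -0.57, did not pass (adjusted p = 0.274, 0.0839 and 0.0747). Of 77 ion channel genes, 6 were lower, 7.79%, and 0 higher, with the lower share close to that over all genes. The potassium channel gene kcnq1.L had 26.7 and 26.2 in ERK3 MO1/2 caps, against 78.9 and 67.8 in Control MO caps, a fall of 1.47 ± 0.14 (limma adjusted p = 0.0082). The anoctamin gene ano5.L fell by 1.05 ± 0.14 against Control MO while it was 1.31 higher than in TFAP2A MO1/2 caps (adjusted p = 0.0181).

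Secretory genes included falls and rises. Of 76 genes for secreted proteins, proteases and mucus, 3 were higher, 3.95%, and 6 lower, 7.89%, close to the shares over all genes. The collagen chaperone gene serpinh1 rose in both copies, serpinh1.S by 1.62 ± 0.19 and serpinh1.L by 1.05 ± 0.14, and both were higher than in TFAP2A MO1/2 caps (limma adjusted p = 0.0196 and 0.0343). The other probe set of serpinh1.S had a change of 0.32 (adjusted p = 0.538). The disulphide isomerase gene agr2.L had 51.5 and 153.9 in ERK3 MO1/2 caps, against 389.0 and 543.0 in Control MO caps, so its fall was uneven: -2.37, and -1.58 without ERK3 MO1/2 replicate 1. Among 54 epidermal transcription factors, 6 were higher, 11.1%, and 7 lower, 13%. The Krüppel-like repressor gene klf11 rose in both copies, klf11.L by 1.07 ± 0.18 and klf11.S by 0.83 ± 0.13. Of the C/EBP family, which drives terminal differentiation, cebpd.L had 57.6 and 87.8 in ERK3 MO1/2 caps, against 194.7 and 221.0 in Control MO caps, and fell by 1.54 ± 0.24. Its relatives cebpa.L and cebpb.L, named after their values were seen, fell by 1.68 ± 0.31 and 1.03 ± 0.20. The further measured genes cebpa.S, cebpd.S, cebpg.L, cebpz.L and cebpz.S are not described here, so the named falls do not stand for the family.

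Among the lists of cell architecture, septins and their effectors had the highest share of falls. Septins are filament-forming GTPases under the cell membrane and at cilia. Of 16 genes for septins and their Cdc42 effectors, 4 were lower, 25%, and 0 higher, with cdc42ep2.L above among the falls. The gene septin8 was lower in both copies, with 10.8 and 13.4 in ERK3 MO1/2 caps against 34.8 and 33.2 in Control MO caps for septin8.L, and 45 and 61.6 in ERK3 MO1/2 caps against 121.1 and 149.5 in Control MO caps for septin8.S. Their changes were -1.5 ± 0.24 and -1.35 ± 0.20 (limma adjusted p = 0.0198 and 0.0159). A call on septin6.S, at -0.71 ± 0.13, was not shared by its other probe set, at 0.01 (adjusted p = 0.972). The core septin gene septin7.L, also counted among the ERK3 partners, had a change of -0.34 ± 0.16 (adjusted p = 0.249). Tight junction genes had 1 rise of 30, 3.33%, and 0 falls. Adherens junction genes had 3 falls of 30, 10%, and genes of the desmosome and hemidesmosome 2 falls of 11, 18.2%, each with 0 rises. Over all genes the shares were 3.95% higher and 7.88% lower. The cadherin gene cdh26.S had 268.0 and 222.8 in ERK3 MO1/2 caps, against 533.8 and 560.3 in Control MO caps, and fell by 1.16 ± 0.15.

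Actin genes were called close to the rate of all genes, with 2 higher, 1.67%, and 9 lower, 7.5%, of 120. The crosslinker gene actn1, encoding alpha-actinin, was lower in both copies: actn1.L had 131.2 and 138.5 in ERK3 MO1/2 caps, against 457.3 and 507.9 in Control MO caps, and actn1.S had 271.2 and 314.1 in ERK3 MO1/2 caps, against 691.3 and 682.4 in Control MO caps. The changes were -1.84 ± 0.13 and -1.23 ± 0.13 (limma adjusted p = 0.00701 and 0.0096). With TFAP2A MO1/2 these copies fell as well, by 1.75 and 0.60 against Control MO. The differences between the knockdowns, -0.09 and -0.64, did not pass (adjusted p = 0.765 and 0.0521). The tropomyosin gene tpm4.L, which stabilises filaments, fell by 1.56 ± 0.17, and its other probe sets had changes of -1.76 (adjusted p = 0.0157) and 0.11 (adjusted p = 0.759). The anillin gene anln.L, whose product links the cytokinetic ring to septins, had 203.8 and 210.1 in ERK3 MO1/2 caps, against 423.7 and 405.7 in Control MO caps, and was also lower than in TFAP2A MO1/2 caps (adjusted p = 0.0286).

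Of 70 microtubule genes, 4 were higher, 5.71%, and 9 lower, 12.9%. The plus-end stabiliser gene clasp1 was higher in both copies: clasp1.L had 122.9 and 137.2 in ERK3 MO1/2 caps, against 46.3 and 47.7 in Control MO caps, and clasp1.S had 143.1 and 165.8 in ERK3 MO1/2 caps, against 64.6 and 63.0 in Control MO caps. Both were also higher than in TFAP2A MO1/2 caps (limma adjusted p = 0.0215 for each), while a further probe set of clasp1.S had a change of 0.04 against Control MO (adjusted p = 0.901). The beta-tubulin gene tubb2b.S had 166.2 and 203.7 in ERK3 MO1/2 caps, against 453.1 and 502.9 in Control MO caps. The destabiliser gene stmn3.S fell by 1.22 ± 0.17. Of 58 integrin and adhesion receptor genes, 3 were higher, 5.17%, and 8 lower, 13.8%. The kindlin gene fermt1.S, which activates integrins in epithelia, had 26.3 and 25.7 in ERK3 MO1/2 caps, against 72.3 and 84.3 in Control MO caps, and fell by 1.59 ± 0.16 (adjusted p = 0.00944). The matrix list of 73 genes had 3 rises, 4.11%, and 2 falls, 2.74%. They were led by the collagen gene col1a2.L at 1.39 ± 0.16 and the metalloproteinase gene mmp3.L at -1.53 ± 0.15. The other probe sets of col1a2.L had changes of 1.48 and 0.04 (adjusted p = 0.0131 and 0.861).

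Fibroblast growth factors (FGFs) signal through receptor kinases to the ERK1 and ERK2 cascade. The receptor gene fgfr4 was higher in both copies, with 195.4 and 213.6 in ERK3 MO1/2 caps against 84.0 and 69.4 in Control MO caps for fgfr4.L, and 748.1 and 708.3 in ERK3 MO1/2 caps against 265.0 and 285.5 in Control MO caps for fgfr4.S. The rises were 1.42 ± 0.14 and 1.40 ± 0.13 (limma adjusted p = 0.00918 and 0.00808), and fgfr4.S was also 1.03 higher than in TFAP2A MO1/2 caps (adjusted p = 0.0206). For fgfr4.L that difference, 0.64, did not pass (adjusted p = 0.0649), and fgfr4.L rose with TFAP2A MO1/2 by 0.78 (adjusted p = 0.0266). The adaptor gene frs2.L, which couples FGF receptors to Ras, rose by 0.61 ± 0.13. Of the ligands, fgf3.L fell by 0.81 ± 0.13, and fgf8.L was under the lower quartile on both ERK3 MO1/2 arrays, at 5.92 and 5.2, against 17.4 and 13.1 in Control MO caps, a fall of at least 2.23-fold. The other probe sets of fgf8.L had changes of -0.42, 0.10 and -0.68, of which the last was called (adjusted p = 0.038). In all, 3 of 26 FGF genes were higher and 3 lower, 11.5% each, against 3.95% higher and 7.88% lower over all genes. Of 48 MAPK and PI3K kinases, 2 were higher, 4.17%, and 4 lower, 8.33%. The kinase gene map2k1.L, encoding the activator of ERK1 and ERK2, had 986.7 and 894.0 in ERK3 MO1/2 caps, against 556.0 and 438.1 in Control MO caps, and was also higher than in TFAP2A MO1/2 caps (adjusted p = 0.0257). The JNK activator gene map2k7.L rose by 0.71 ± 0.14, while the p38 activator gene map2k3 fell by 1.27 ± 0.27. The p38 kinase gene mapk12.S fell by 0.73 ± 0.13, and its other probe set had a change of -0.21 (adjusted p = 0.476).

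Wnt pathway genes, which set cell fate and planar polarity, had 3 rises and 6 falls among 68, 4.41% and 8.82%. The planar polarity gene vangl1.L had 40.6 and 56.2 in ERK3 MO1/2 caps, against 195.6 and 208.9 in Control MO caps, and fell by 2.08 ± 0.19 (limma adjusted p = 0.00807). The receptor gene fzd8.S had 194.5 and 250.7 in ERK3 MO1/2 caps, against 763.9 and 701.1 in Control MO caps, also lower than in TFAP2A MO1/2 caps (adjusted p = 0.0143), while its other 3 probe sets had changes of -0.74, -0.50 and 0.18 and were not called. The antagonist gene dkk1.S had 9.07 and 7.49 in ERK3 MO1/2 caps, against 23.4 and 28.2 in Control MO caps, and its other probe set had a change of -0.19 (adjusted p = 0.399). The secreted inhibitor gene wif1.S and the receptor gene fzd3.L rose by 1.11 ± 0.20 and 1.05 ± 0.21, while the other probe sets of wif1.S had changes of 0.54, 0.06 and 0.20 and were not called.

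In the BMP and TGF-beta list, 1 of 71 genes was higher and 3 were lower, 1.41% and 4.23%, both under the shares over all genes. The BMP target gene id2.S, an inhibitor of helix-loop-helix factors, had 304.2 and 191.4 in ERK3 MO1/2 caps, against 1048.3 and 1264.1 in Control MO caps. It fell by 2.25 ± 0.24 (limma adjusted p = 0.00973) and was 1.76 below its level in TFAP2A MO1/2 caps (adjusted p = 0.0242). Its relative id4.S fell by 1.27 ± 0.14 at the brightest probe set, while the other probe set had a change of 0.39 (adjusted p = 0.335). The further Id genes id2.L, id3.L and id3.S were measured and not called. Of 30 Notch genes 2 were higher, 6.67%, and 0 were lower. The rises were those of the DNA-binding effector gene rbpj.S and the coactivator gene maml1.L, by 0.70 ± 0.13 and 0.79 ± 0.14. The other probe sets of rbpj.S had changes of 0.71 and -0.47 (adjusted p = 0.0302 and 0.0673).

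Retinoid genes were called in the higher direction only. Retinoic acid is made from vitamin A by retinal dehydrogenases and acts through nuclear receptors. Of 34 genes 4 were higher, 11.8%, and 0 lower. The visual cycle isomerase gene rpe65.L had 137.8 and 127.7 in ERK3 MO1/2 caps, against 5.54 and 5.25 in Control MO caps, which lie under the lower quartile of their arrays, so its rise was at least 20.6-fold. The dehydrogenase gene aldh1a2.L, the main source of retinoic acid in the trunk of embryos, had 137.4 and 93.6 in ERK3 MO1/2 caps, against 27.8 and 24.8 in Control MO caps. It rose by 2.11 ± 0.22 (limma adjusted p = 0.00956), but its other 6 probe sets had changes of -0.18 to 1.34 and only the one at 1.34 was called (adjusted p = 0.0406). The receptor gene rxra.L had 84.9 and 82.5 in ERK3 MO1/2 caps, against 41.6 and 46.6 in Control MO caps, and the retinol carrier gene rbp2.L rose by 1.07 ± 0.17. Against TFAP2A MO1/2, rpe65.L, aldh1a2.L and rxra.L were higher too (adjusted p = 0.023, 0.026 and 0.0378). With TFAP2A MO1/2, rpe65.L also rose against Control MO, by 2.43 (limma adjusted p = 0.0107). The same changes of aldh1a2.L and rxra.L, 0.63 and 0.21, did not pass (0.13 and 0.342). Of the list, 11 genes had a change below 0. Both copies of the retinol dehydrogenase gene rdh10, named after their values were seen, were 2-fold or more lower in both same-numbered pairs without passing the test: rdh10.L had 187.8 and 120.7 in ERK3 MO1/2 caps against 447.4 and 247.0 in Control MO caps (adjusted p = 0.107), and rdh10.S had 36.1 and 60.1 in ERK3 MO1/2 caps against 104.4 and 136.2 in Control MO caps (adjusted p = 0.0544).

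Ribosomal protein genes were called less often than genes in general. Of 89 ribosomal protein genes, 2 were lower, 2.25%, and 0 higher, with a median change of -0.02. Of 52 mitochondrial ribosomal protein genes 1 was higher and 1 lower, 1.92% each. The gene rpl19.L of the large subunit had 1259.5 and 1404.9 in ERK3 MO1/2 caps, against 1901.1 and 2075.9 in Control MO caps, a fall of 0.58 ± 0.13. Of 109 translation factors and tRNA synthetases, 4 were higher, 3.67%, and 10 lower, 9.17%. The initiation scaffold gene eif4g1 was lower in both copies, eif4g1.L by 0.76 ± 0.13 and eif4g1.S by 0.60 ± 0.12, and the elongation factor gene eef1a1o.L had 1004.5 and 1551.8 in ERK3 MO1/2 caps, against 2902.8 and 3267.4 in Control MO caps. Splicing and RNA processing had 3 rises and 10 falls among 175, 1.71% and 5.71%. The RNA-binding protein gene rbm34.L had 212.4 and 240.9 in ERK3 MO1/2 caps, against 977.2 and 1108.0 in Control MO caps, and fell by 2.20 ± 0.19 (limma adjusted p = 0.00807). The ribosome biogenesis helicase gene ddx10.S fell by 1.0 ± 0.13, also against TFAP2A MO1/2 (-1.38, adjusted p = 0.0136).

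Folding and degradation genes lay near the shares over all genes. Of 149 heat shock and endoplasmic reticulum folding genes, 6 were higher, 4.03%, and 9 lower, 6.04%. Several resident chaperones of the endoplasmic reticulum were among the falls: the calreticulin gene calr.L had 1288.3 and 1430.4 in ERK3 MO1/2 caps, against 2868.1 and 2756.6 in Control MO caps, and hsp90b1.S, encoding GRP94, had 316.4 and 289.1 in ERK3 MO1/2 caps, against 668.9 and 553.5 in Control MO caps. The prolyl isomerase genes fkbp9.S and fkbp11.L of the same compartment fell by 1.41 ± 0.12 and 1.45 ± 0.20, and the other probe set of fkbp9.S had a change of -0.24 (adjusted p = 0.306). The 6 rises of this list are not described here, and the collagen chaperone gene serpinh1, described with the secretory genes, rose in both copies. Of 277 proteasome and ubiquitin genes, 11 were higher, 3.97%, and 18 lower, 6.5%. The COP9 signalosome gene cops7b.S had 84.3 and 85.2 in ERK3 MO1/2 caps, against 205.6 and 199.4 in Control MO caps. It fell by 1.26 ± 0.13 (limma adjusted p = 0.00916), also against TFAP2A MO1/2 (-1.28, adjusted p = 0.0143). The NEDD8 activating enzyme gene uba3.S had 190.6 and 146.5 in ERK3 MO1/2 caps, against 56.4 and 46.1 in Control MO caps, and rose by 1.71 ± 0.20.

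Of 115 genes of oxidative phosphorylation and mitochondrial import, 4 were higher, 3.48%, and 6 lower, 5.22%, and the ATP synthase gene atp5mc1.S was among the falls, with 138.4 and 132.6 in ERK3 MO1/2 caps against 305.8 and 304.7 in Control MO caps. Of 57 genes of glycolysis, glycogen and glucose transport, 2 were higher, 3.51%, and 7 lower, 12.3%. The dehydrogenase gene gapdh.L had 29.0 and 62.0 in ERK3 MO1/2 caps, against 195.1 and 260.0 in Control MO caps, and fell by 2.41 ± 0.39 (limma adjusted p = 0.0203). The regulator gene pfkfb1.S, which sets the level of the glycolytic activator fructose 2,6-bisphosphate, fell by 1.40 ± 0.15, and its other probe sets had changes of -0.71 and 0.11 (adjusted p = 0.0818 and 0.68). The list of pyruvate and citrate cycle genes had 1 rise and 1 fall among 38, 2.63% each. The pyruvate dehydrogenase kinase gene pdk1.L had 51.2 and 36.4 in ERK3 MO1/2 caps, against 164.8 and 117.7 in Control MO caps. The gene of its target, pdha1.S, rose by 0.83 ± 0.15. The glycogen phosphorylase gene pygb.S had 73.0 and 129.1 in ERK3 MO1/2 caps, against 18.7 and 22.7 in Control MO caps. Its other 3 probe sets had changes of 4.20, 0.38 and 0.69 (adjusted p = 0.0068, 0.146 and 0.0489).

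Lipid genes had 4 rises, 4%, and 11 falls, 11%, among 100. The citrate lyase gene acly.L, which supplies acetyl groups for fatty acid synthesis, had 97.5 and 99.4 in ERK3 MO1/2 caps, against 234.7 and 235.6 in Control MO caps. The citrate carrier gene slc25a1.L, counted among the solute carriers, feeds that enzyme and had 759.9 and 887.3 in ERK3 MO1/2 caps, against 1662.3 and 1900.9 in Control MO caps. These genes fell by 1.26 ± 0.15 and 1.11 ± 0.15 (limma adjusted p = 0.0114 and 0.0131). The desaturase gene scd.L rose by 1.35 ± 0.14 and the lipoprotein gene apoe.L by 2.32 ± 0.25, but the other probe set of each had changes of 0.07 and 0.01 (adjusted p = 0.832 and 0.966). Of 83 redox genes 2 were higher, 2.41%, and 6 lower, 7.23%, both under the shares over all genes. The glutathione peroxidase gene gpx1.S had 184.9 and 121.2 in ERK3 MO1/2 caps, against 10.6 and 14.5 in Control MO caps, and the microsomal glutathione transferase gene mgst1.L had 18.0 and 31.4 in ERK3 MO1/2 caps, against 111.5 and 167.2 in Control MO caps. Relative to TFAP2A MO1/2, gpx1.S was 2.41 higher (adjusted p = 0.0171), whereas the difference of 0.46 for mgst1.L did not pass (adjusted p = 0.482). With TFAP2A MO1/2, gpx1.S also rose against Control MO, by 1.18, and mgst1.L fell by 2.98 (limma adjusted p = 0.0385 and 0.00879).

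Amino acid genes had 4 rises and 9 falls of 80, 5% and 11.2%, and the folate enzyme genes aldh1l1.L and mthfs.L fell by 1.65 ± 0.27 and 0.78 ± 0.13. Of 57 nucleotide genes 1 was higher, 1.75%, and 3 lower, 5.26%, both under the shares over all genes. The phosphoribosyl pyrophosphate synthetase gene prps1.L had 360.2 and 411.8 in ERK3 MO1/2 caps, against 753.0 and 801.7 in Control MO caps, and was also lower than in TFAP2A MO1/2 caps (limma adjusted p = 0.0163). Solute carriers had 5 rises, 2.54%, and 21 falls, 10.7%, among 197. The amino acid transporter gene slc38a2.L had 953.0 and 1066.7 in ERK3 MO1/2 caps, against 2615.0 and 2196.7 in Control MO caps. The monocarboxylate carrier family gene slc16a6.L had 143.8 and 130.6 in ERK3 MO1/2 caps, against 386.9 and 374.9 in Control MO caps. Both falls exceeded 2-fold on every pair of arrays, and slc38a2.L was lower than in TFAP2A MO1/2 caps as well (adjusted p = 0.0257). The GABA transporter gene slc6a13.L rose by 1.54 ± 0.16.

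Membrane traffic genes were called near the overall rate, with 10 higher, 3.32%, and 26 lower, 8.64%, of 301. The Golgi matrix gene golga2.S, encoding GM130, had 145.3 and 136.6 in ERK3 MO1/2 caps, against 34.2 and 22.5 in Control MO caps. The autophagy-linked small GTPase gene rab24.L had 179.8 and 183.4 in ERK3 MO1/2 caps, against 38.8 and 46.3 in Control MO caps. These rises were 2.34 ± 0.21 and 2.10 ± 0.16 (limma adjusted p = 0.00808 and 0.00779), and rab24.L was also higher than in TFAP2A MO1/2 caps (adjusted p = 0.0189). The coat gene sec31b.L of transport from the endoplasmic reticulum fell by 1.27 ± 0.12. In the nuclear envelope and pore list 5 of 70 genes were higher, 7.14%, and 4 lower, 5.71%. The linker gene sun2.L, which ties the nucleus to the cytoskeleton, had 41.4 and 32.4 in ERK3 MO1/2 caps, against 5.06 and 7.71 in Control MO caps. This gene rose by 3.46 with TFAP2A MO1/2, and the difference between the knockdowns, -0.91, did not pass (limma adjusted p = 0.0898). Histone and chromatin genes had 2 rises, 1.68%, and 6 falls, 5.04%, among 119, both under the shares over all genes. Among them were the histone gene h2ac1.S at 1.77 ± 0.23 and the remodelling ATPase gene smarca5.S at -0.91 ± 0.14.

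Genes of other germ layers were called in the lower direction only, at a share near the 7.88% lower over all genes. Of 94 mesoderm and endoderm genes 9 were lower, 9.57%, and 0 higher, with a median of -0.16 that was -0.06 without Control MO replicate 2. The Brachyury gene tbxt.L, which marks mesoderm, had 10.3 and 10.3 in ERK3 MO1/2 caps, against 66.8 and 32.3 in Control MO caps, and tbxt.S had 17.7 and 15.4 in ERK3 MO1/2 caps, against 85.4 and 45 in Control MO caps. Control MO replicate 1 was the highest array for both copies. The GATA factor gene gata4 was lower in both copies, by 1.03 ± 0.12 for gata4.L and 1.12 ± 0.21 for gata4.S, and the other probe set of gata4.L had a change of 0.03 (adjusted p = 0.9). All 4 of these were also lower than in TFAP2A MO1/2 caps (limma adjusted p = 0.0189 to 0.0343). The endoderm markers sox17a.L, sox17a.S and foxa2.L, at 0.17, -0.24 and 0.11, did not pass against Control MO (adjusted p = 0.72, 0.81 and 0.651). The muscle factor genes myod1.L and myod1.S, which define skeletal muscle, lay between 9.01 and 15.4 on the ERK3 MO1/2 arrays and between 9.81 and 15.4 on the Control MO arrays, and did not pass. The mesoderm marker actc1.L had 5.51 and 8.54 in ERK3 MO1/2 caps, against 16.4 and 28.7 in Control MO caps. It fell by 1.66 (adjusted p = 0.0377). Of 73 neural genes 4 were lower, 5.48%, which is under the share over all genes, and 0 higher. The head factor gene otx1.L fell by 1.47 ± 0.13. Of 35 germ plasm and maternal genes 4 were higher, 11.4%, and 5 lower, 14.3%: the polyadenylation factor gene cpeb1.L rose by 1.49 ± 0.20, and the germ-cell helicase gene ddx25.L fell by 2.84 ± 0.21. Of 13 cement and hatching gland genes, 3 were lower, 23.1%, and the median was -0.72, with -0.40 to -0.89 when an array was left out. With TFAP2A MO1/2 the median of this list against the same control arrays was -1.03, with 6 genes lower and 0 higher. Between the knockdowns 0 genes of this list were called.

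Of 17 genes of the circadian clock 3 were lower, 17.6%, and 0 higher. The core activator gene arntl.L, encoding Bmal1, had 17.8 and 17.8 in ERK3 MO1/2 caps, against 86.4 and 88.4 in Control MO caps, and fell by 2.30 ± 0.17 (limma adjusted p = 0.00725). The clock output gene dbp.L had 7.96 and 11.3 in ERK3 MO1/2 caps, against 26.1 and 32.2 in Control MO caps, and the repressor gene cry1.L fell by 0.80 ± 0.17. Their order against TFAP2A MO1/2 differed: arntl.L was 1.04 lower in ERK3 MO1/2 caps (adjusted p = 0.031), and cry1.L was 1.62 higher (adjusted p = 0.0163). Both ERK3 MO1/2 arrays lay below both control arrays for 9 of the 17 genes and above them for 0. Over all genes these shares were 29.9% and 28.7%. The clock list had a median change of -0.21. Its median in TFAP2A MO1/2 caps, relative to the same control arrays, was -0.30, where 3 clock genes were called lower and 0 higher. Of 89 interferon and innate immunity genes, 3 were higher, 3.37%, and 10 lower, 11.2%. The antiviral GTPase gene mx1.L had 37.8 and 34.1 in ERK3 MO1/2 caps, against 4.86 on both Control MO arrays, a rise of at least 5.57-fold. The interferon-inducible gene slfn13.L had 8.64 and 9.22 in ERK3 MO1/2 caps, against 62.9 and 47.4 in Control MO caps, so genes of this group moved in both directions. Both chemokine-list calls of 14, 14.3%, were rises, cxcl12.L and the receptor gene ccr7.S, whose change of 1.97 was 1.27 without ERK3 MO1/2 replicate 2. As ccr7.S was under the lower quartile on both Control MO arrays, its rise was at least 3.2-fold.

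Xenopus laevis is allotetraploid and often keeps an L and an S copy of a gene, which the array reads with separate probe sets. Both copies were measured for 2011 genes. In 16 of these both copies were called higher, in 40 both lower, and in 353 a single copy was called. Where a single copy was called, the other changed in the same direction in 252 genes, by a median of 0.20 in that direction against 0.95 for the called copy. Across the 2011 genes the correlation of L and S changes was 0.37, and 12.6% of all L genes and 10.9% of all S genes were called. Among the largest concordant falls were those of plk2, tbxt, agr2, tacc3 and b3gnt5, the last a glycosyltransferase gene with 22.1 and 29.0 in ERK3 MO1/2 caps against 98.9 and 118.6 in Control MO caps for b3gnt5.L. The RNA polymerase phosphatase gene ssu72 rose in both copies, ssu72.L by 2.27 ± 0.15 and ssu72.S by 1.12 ± 0.15, while the other probe set of ssu72.L had a change of -0.62 (adjusted p = 0.0869). In 3 genes the copies were called in opposite directions. The lysophospholipid acyltransferase gene lpgat1.L had 15.4 and 12.1 in ERK3 MO1/2 caps, against 33.0 and 48 in Control MO caps, while lpgat1.S had 124.5 and 144.2 in ERK3 MO1/2 caps, against 48.5 and 51.1 in Control MO caps. The Wnt and BMP antagonist gene tsku.L had 1545.6 and 1319.7 in ERK3 MO1/2 caps, against 933.7 and 848.7 in Control MO caps, while tsku.S had 43.7 and 34.2 in ERK3 MO1/2 caps, against 137.9 and 87.2 in Control MO caps. The third, trhd, had changes of -1.17 ± 0.25 for trhd.L and 0.87 ± 0.16 for trhd.S (limma adjusted p = 0.0402 and 0.0271). Whether a probe set also binds transcripts of the other copy was not tested.

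**Figure D5:**
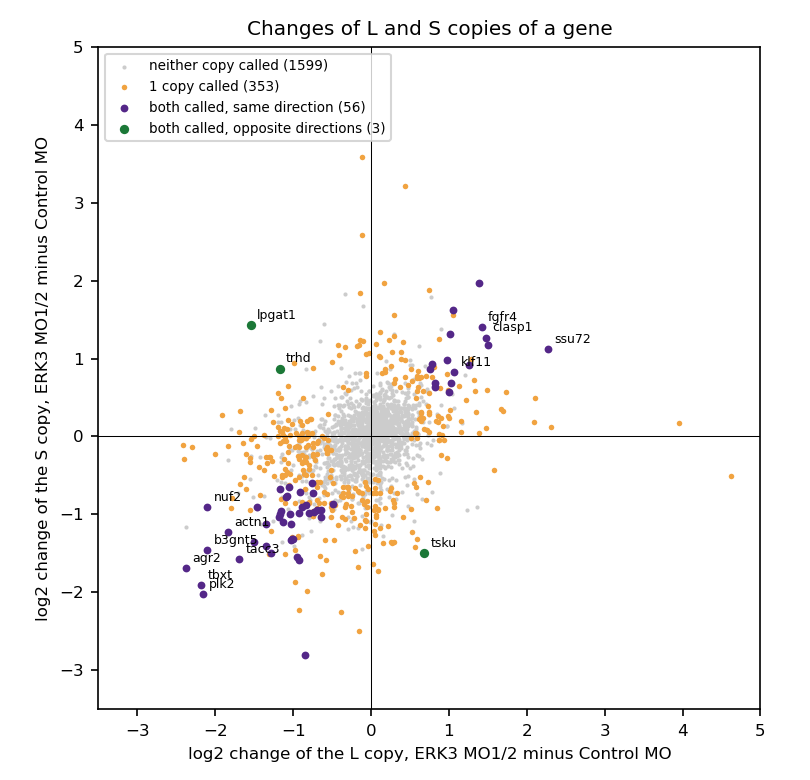
Log2 change of the L copy (horizontal axis) and of the S copy (vertical axis) for 2011 genes, ERK3 MO1/2 minus Control MO. Purple points are the genes with both copies called in 1 direction, green points the 3 genes called in opposite directions, orange points the 353 genes with a single copy called, and grey points the rest. Named points include the concordant falls of nuf2, tacc3, actn1 and plk2 and the concordant rises of clasp1, ssu72 and fgfr4.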

How the data were processed

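Total RNA of each sample, 250 ng, was labelled and read on an Affymetrix array for this frog with 3′-biased probe sets. The authors scaled the deposited intensity values with the robust multiarray average (RMA) algorithm, per the series' design text. RMA brings arrays to 1 distribution and can hide a shift shared by most transcripts. The deposited intensity values ran from 2.51 to 14672, a linear scale, so their log2 was taken with no added constant. Of 32635 probe sets, 96 manufacturer controls were left out. A platform annotation of 2016 named 15495 tested probe sets by 1 symbol and 279 by more, and 16765 stayed unnamed; 15384 of the 1-symbol Entrez identifiers matched RefSeq. A gene is its brightest 1-symbol probe set.

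Values were fitted with limma 3.58.1 in R 4.3.3 with a mean for each of 3 groups over 6 arrays (3 residual and 2.99 prior degrees of freedom), two-sided, with Benjamini-Hochberg adjustment over 32539 probe sets. A group was dim for a gene if each of its arrays fell below its own lower quartile, and the fold was then computed against that quartile as a lower bound. Arrays have no read depth, and 2 arrays per group limit the precision.

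The comparison, the lists and the rule for named genes were chosen with earlier results of these data known, and list patterns that had caught unrelated symbols were corrected after values were seen. The result of 1 list is not reported here. The rule took the 12 largest rises and falls, the 10 smallest adjusted p-values, up to 6 called members of each list, the ERK3 partners, markers, and genes with both copies called. Named genes outside it are marked as such. Alternatives were a replicate block, the 4 compared arrays alone, each array left out, log2 of intensity plus 16, dim probe sets left out, a second quantile normalization, median centring, limma-trend with a robust prior, and the mean of a gene's probe sets.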

Additional observations from a re-analysis of the deposited data

How the results depend on the processing

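The counts of calls rest on how the spread is estimated. Of the 11303 genes, 446 were higher and 891 lower. With only the 4 arrays of ERK3 MO1/2 and Control MO, or without either TFAP2A MO1/2 array, 240 were higher and 519 lower, and 2002 of 32539 probe sets were called in place of 3443. Leaving out 1 array gave 0 to 240 higher genes, 0 to 519 lower genes and 0 to 2002 called probe sets, with 0 without either control array, where the smallest adjusted p-values were 0.0519 and 0.0558. The lone array then left in a group is assumed to vary like those of the other groups. With a replicate block, 1132 genes were higher and 1931 lower and 7945 probe sets were called; all 446 and 891 genes stayed called. Same-numbered deviations from the group means of ERK3 MO1/2 and Control MO correlated at 0.535 over probe sets, but the labels state no shared batch, so the block is only an alternative. Under it ncoa3.S passed, with an adjusted p of 0.047 in place of 0.136. Counts were within 1.5 times of these under the other 6 settings. Centring each array on its median gave 552 higher and 737 lower genes, so that 42.8% of the called genes were higher in place of 33.4%.

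Of 357 genes that the naming rule took, 299 were called. With only the 4 arrays, 216 of these stayed called, and with log2 of intensity plus 16, 255. The change of pygm.S turned to 0.18 with the mean of its 2 probe sets, which were called in opposite directions. No other called gene of these turned its direction in any setting. Calls were fewest among dim genes, at 1.59% of the dimmest of 4 equal classes, against 10.4% of the brightest. The cause was not tested.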
